A study of Mus musculus with 3 samples.

Results

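Iron is carried, stored, released and recovered from heme by a small set of proteins, and 9 of their genes are described here across mouse brain cells of control and stroke samples. The genes were chosen by symbol, and all 9 are among the 31053 genes counted: Hmox1, Blvrb and Cd163 for heme breakdown and hemoglobin uptake, Fth1 and Ftl1 for storage, Tfrc and Trf for import, and Slc40a1 and Cp for export. The study collected 3 single-cell libraries, labelled control, Ischemic Stroke (IS) and Hemorrhagic Stroke (HS), each from brain tissue of mice of strain C56BL6 (spelled as in the labels) at 10 weeks of age. Tissue from 8 mice was pooled for each library, which makes a library 1 sample. Ischemia was made by blocking the middle cerebral artery for 90 min and hemorrhage by injecting collagenase into the striatum.

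The deposited matrix holds all 3 libraries as 1 table, and a cell's library is known only by the last digit of its barcode (suffix 1, 2 or 3). The files and labels do not tie these digits to control, IS or HS. Every value below is therefore given by suffix, and no difference can be assigned to stroke. With 1 library per suffix there is no replicate, no test was possible between libraries, and intervals cover counting error only. After requiring at least 1000 UMIs (unique molecular identifiers, each 1 captured RNA molecule) and at most 30% mitochondrial UMIs, 31982 of 35968 barcodes were kept (8969, 13769 and 9244 for suffixes 1 to 3, with median depths of 6389, 5801 and 6288 UMIs). Between 0.206% and 0.401% of a suffix's kept barcodes recurred in another suffix. Cells were gated into 20 classes by how many of 10 marker genes they carried, none of them 1 of the 9 genes. In this way 25763 cells (80.6%) fell in 1 class, 2172 in several and 4047 in none. Every class had at least 3 of its own markers among its 10 leading genes, which the gate itself favours and which is no separate check of the names. Class names carry "-like" because they rest on these markers and not on an annotation by the authors. The libraries stood apart in makeup: 958 of 975 endothelial-like, 101 of 104 pericyte-like and 111 of 127 border macrophage-like cells came from suffix 3, whereas 24 of 2360 T cell-like cells did. Levels are counts-per-million values (CPM), each gene's UMIs scaled to the summed UMIs of the class, shown only for the 37 class and suffix sums with at least 20 cells unless the cell number is stated, and since the kit reads transcript 3′ ends they were not divided by length. In sums of this kind, fewer cells with a message and less message per cell were told apart only where the share of cells is given.

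Heme from dead or engulfed red cells is opened by heme oxygenase to biliverdin, carbon monoxide and ferrous iron, and biliverdin reductases turn biliverdin to bilirubin. Freed iron is held in ferritin, a shell of heavy chains, which oxidise iron, and light chains, which help it mineralise. Otherwise the iron leaves the cell through ferroportin, the only known iron exporter of mammals. A copper oxidase such as ceruloplasmin oxidises the exported iron so that transferrin can bind it. Cells take up transferrin through the transferrin receptor, which at the blood-brain barrier is the classic route of brain iron entry, and oligodendrocytes are known as the iron-rich cells that make transferrin in the brain.

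For 4 of the 9 genes much of the regulation acts on the message itself. Iron regulatory proteins bind a hairpin with an unpaired C and a loop of 6 bases; in the 5′ UTR it blocks translation when iron is low, and in the 3′ UTR it protects the message, so a UMI count need not follow protein for the ferritins and ferroportin. The hairpins are shown because they mark messages that may be under such control, and binding or control in these cells was not measured. The reference transcripts (GENCODE M21 on GRCm38, the assembly called mm10 in the submitters' processing notes) were searched on the sense strand for the unpaired C, 5 paired bases, the loop letters CAGTGN and the 5 bases closing the stem. Of 21864 genes, 18 (0.0823%) held a match in the 5′ UTR and 104 (0.476%) in the 3′ UTR of the 1 transcript searched per gene. The matches, 29 bases long with the unpaired C and the loop in capitals, were:
Fth1, 5′ UTR, chr19:9982732-9982760, plus strand: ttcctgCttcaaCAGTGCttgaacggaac
Ftl1, 5′ UTR, chr7:45459779-45459807, minus strand: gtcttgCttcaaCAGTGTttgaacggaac
Slc40a1, 5′ UTR, chr1:45925465-45925493, minus strand: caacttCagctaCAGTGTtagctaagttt
Tfrc, 3′ UTR, chr16:32631219-32631247, plus strand: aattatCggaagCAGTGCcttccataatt
Tfrc, 3′ UTR, chr16:32631598-32631626, plus strand: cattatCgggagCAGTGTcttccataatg
Tfrc, 3′ UTR, chr16:32631663-32631691, plus strand: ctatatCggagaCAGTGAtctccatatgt
Tfrc, 3′ UTR, chr16:32631710-32631738, plus strand: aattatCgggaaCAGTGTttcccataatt
Both ferritin genes shared the stem and the loop up to its last base, and Tfrc held 4 matches. A hairpin with other loop letters would not have been found. Hmox1, Blvrb, Cd163, Trf and Cp had no match to the letters searched for in the UTRs searched.

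**Figure D1:**
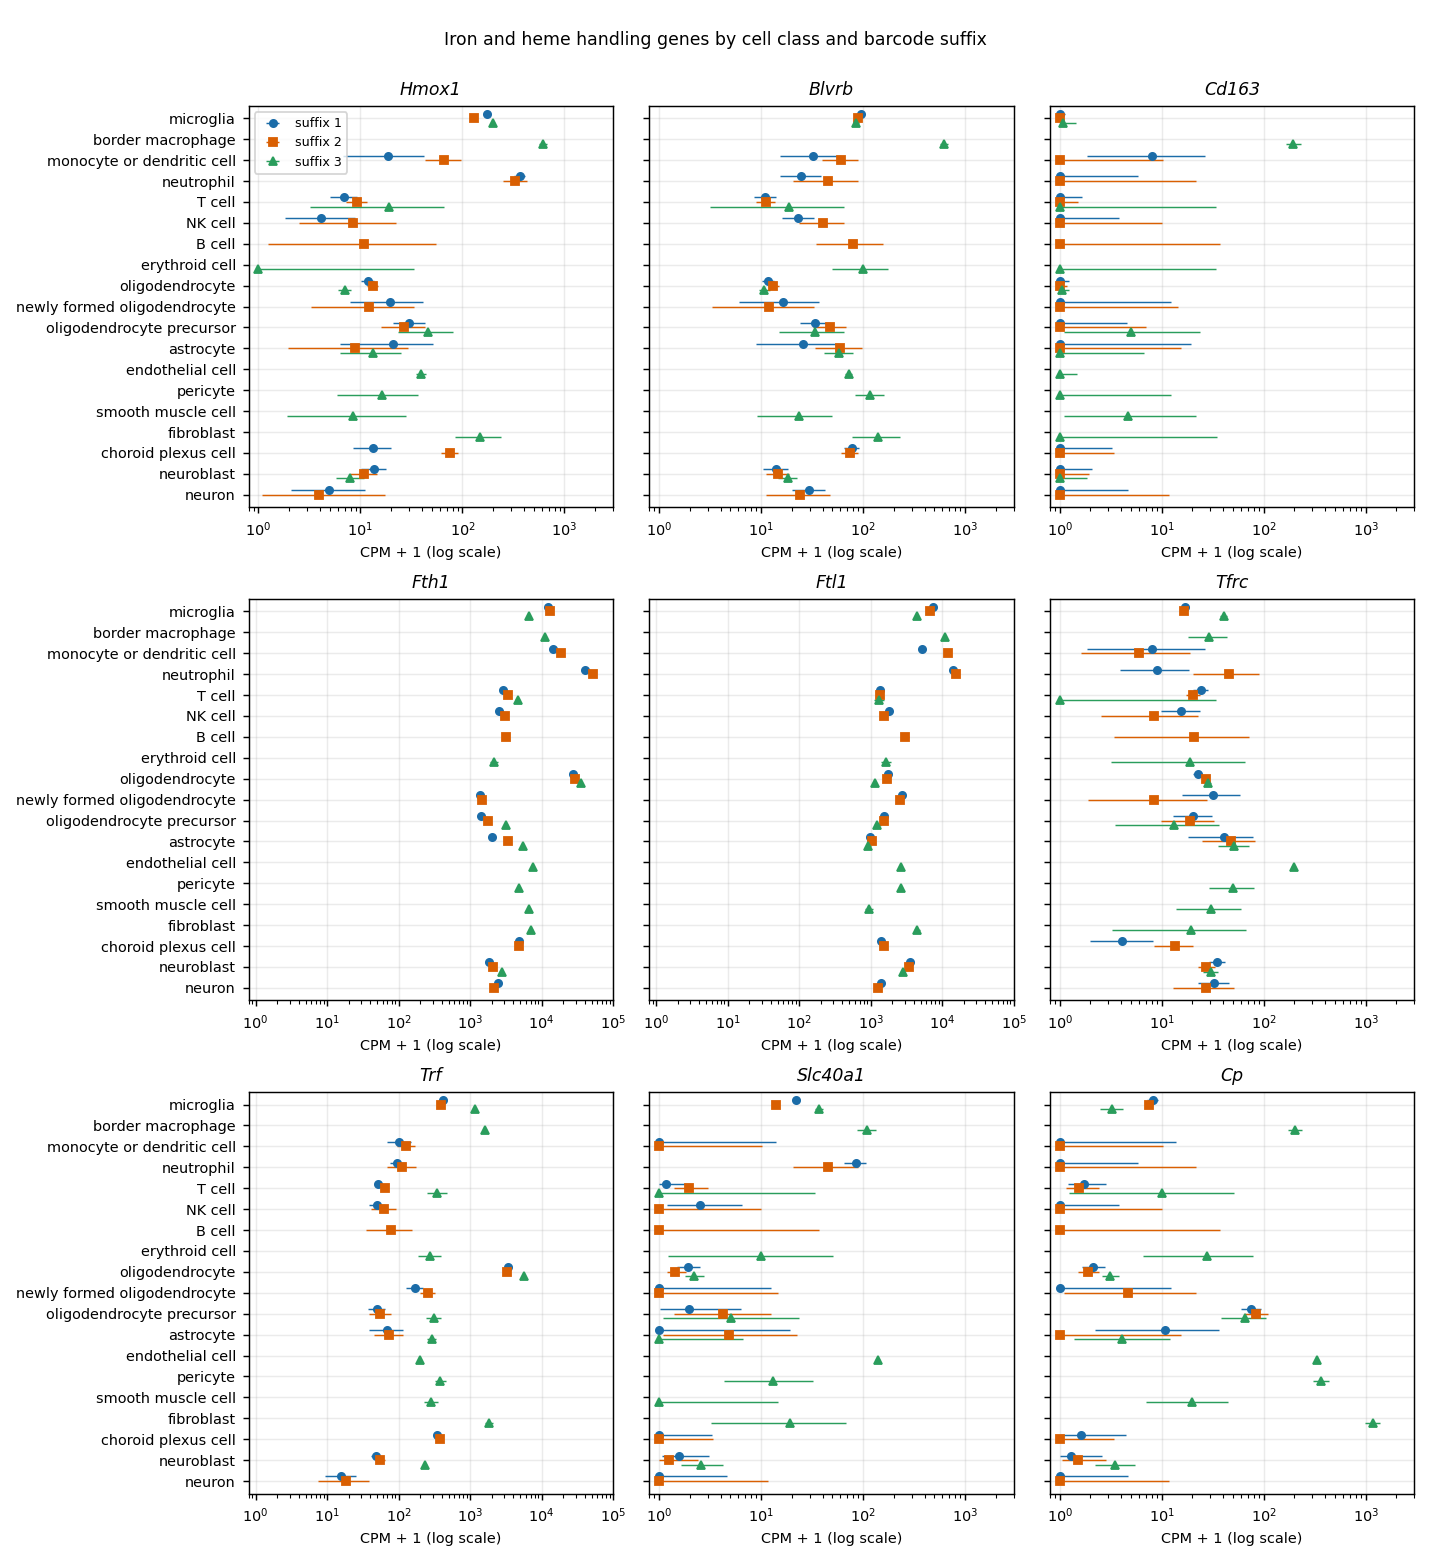
CPM + 1 (horizontal, log scale) of each of the 9 genes in every class and suffix with at least 20 cells, with bars for exact Poisson 95% intervals. Cd163 stood at 194.7 CPM in border macrophage-like cells and at no more than 7.01 CPM in the other sums shown. Fth1 peaked in neutrophil-like and oligodendrocyte-like cells, and Tfrc in endothelial-like cells.

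Sums of at least 20 cells, each scaled to all its UMIs, were ranked. Among them Hmox1, Blvrb and Cd163 messages were highest in border macrophage-like cells, named for the resident macrophages of meninges and vessel walls. Hmox1, the inducible heme oxygenase, reached 619.9 CPM there (95% Poisson interval 565 to 679, 111 cells of suffix 3), and 72.1% of the cells held at least 1 Hmox1 UMI. Neutrophil-like cells came next with 364 and 330.1 CPM in suffixes 1 and 2, and their intervals overlapped each other (322 to 409 and 251 to 426), but 17 such cells of suffix 3 gave only 3 UMIs (40.4 CPM, 8.32 to 118). Microglia-like cells gave 172, 128 and 200.2 CPM in suffixes 1 to 3, and 51.4% to 59.4% of them held a Hmox1 UMI, against 3.06% to 8.33% of T cell-like cells, taken here as background (median depths of 6551 to 8499 and 4405 to 5675 UMIs). The single fibroblast-like sum (147 CPM, 20 cells) overlapped this range. All other sums lay at or below 73.8 CPM, the highest of them choroid plexus-like cells of suffix 2, and oligodendrocyte-like cells were at 10.8, 12.2 and 6.03 CPM. Within suffix 3 border macrophage-like cells lay above microglia-like cells, and within suffixes 1 and 2 neutrophil-like cells lay above them, each beyond the counting intervals. In the few border macrophage-like cells of the other suffixes, Hmox1 gave 60 UMIs in 10 cells of suffix 1 (908 CPM, 693 to 1169) and 7 UMIs in 6 cells of suffix 2 (224 CPM, 90.2 to 462), so the level in this class ranged widely between suffixes. In suffix 2 the border macrophage-like level lay below the neutrophil-like level, with overlapping intervals.

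Blvrb encodes biliverdin reductase B, which also reduces flavins and is abundant in red cells. It followed Hmox1 in border macrophage-like cells, with 624 CPM (569 to 683), and a Blvrb UMI was found in 91.0% of them. Unlike Hmox1 it was low in neutrophil-like cells, with 23.9 and 44.8 CPM, where microglia-like cells held 93.7, 88.1 and 84.1 CPM and differed little between suffixes. Pericyte-like (116 CPM), fibroblast-like (138 CPM), erythroid-like (97.9 CPM), choroid plexus-like (76.3 and 73.1 CPM), endothelial-like (71.4 CPM) and B cell-like cells (78.2 CPM) overlapped the microglia-like range or lay near it. Oligodendrocyte-like cells, with 9.77 to 12.2 CPM, and T cell-like cells, with 10.0 to 17.9 CPM, were among the lowest.

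Cd163 encodes the receptor by which macrophages take up hemoglobin bound to haptoglobin. Of 273 Cd163 UMIs in all kept cells, 168 came from the 127 border macrophage-like cells. Monocyte or dendritic cell-like cells held 4, and no other class held more than these. Most of the rest therefore lay in cells that passed several gates or none, which are in no class sum. The level there was 194.7 CPM (165 to 229) in suffix 3, from 147 UMIs in 43 of 111 cells. The 10 cells of suffix 1 gave 18 UMIs and the 6 cells of suffix 2 gave 3. No Cd163 UMI was found in the microglia-like cells of suffixes 1 and 2, which allows up to 0.106 and 0.0598 CPM, and 1 was found in suffix 3. No other sum passed 7.01 CPM. The gate used Mrc1 and other genes of border macrophages but not Cd163.

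Within border macrophage-like cells of suffix 3 the genes of this route overlapped. A Hmox1 UMI was found in 35 of 43 cells with Cd163 (81.4%) and in 66.2% of cells without it. A Slc40a1 UMI was found in 18 of the 43 (41.9%) against 27.9% of the rest. Cells with and without Cd163 had similar median depths, 7055 and 6928 UMIs. For Blvrb the shares were 90.7% and 91.2%. In this class 75 of 111 cells held both Hmox1 and Blvrb, but cells with Hmox1 were deeper (median 7063 against 5292 UMIs), and the part of depth in that overlap was not tested.

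Ferritin messages were found in nearly every cell, and the classes differed in which chain they carried. Fth1, the heavy chain, was highest in neutrophil-like cells, at 40867 and 51986 CPM in suffixes 1 and 2, and 17 such cells of suffix 3 held 26449 CPM. Oligodendrocyte-like cells followed with 27924, 29359 and 36020 CPM. Monocyte or dendritic cell-like cells held 14521 and 18433 CPM and microglia-like cells 12320, 13167 and 6756 CPM. Border macrophage-like cells held 11049 CPM, endothelial-like cells 7516 CPM and fibroblast-like cells 7048 CPM. The remaining classes lay between 1373 CPM, in newly formed oligodendrocyte-like cells of suffix 1, and 6681 CPM, in smooth muscle cell-like cells. Within oligodendrocyte-like cells of suffix 1 the 10th, 50th and 90th percentiles were 158, 275 and 403 Fth1 UMIs per 10000 UMIs, whereas in neutrophil-like cells of the same suffix they were 162, 381 and 732, so the 2 classes overlapped cell by cell.

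Ftl1, the light chain, was highest in the myeloid classes. Neutrophil-like cells held 13930 and 15365 CPM, border macrophage-like cells 10943 CPM, monocyte or dendritic cell-like cells 5252 and 12072 CPM, and microglia-like cells 7367, 6712 and 4482 CPM. Oligodendrocyte-like cells, second for Fth1, held only 1742, 1689 and 1152 CPM of Ftl1, at the level of T cell-like (1324 to 1355 CPM) and oligodendrocyte precursor-like cells (1235 to 1550 CPM). Neuroblast-like cells held 2789 to 3485 CPM, more Ftl1 than Fth1 in suffixes 1 and 2. The near-identical copy Ftl1-ps1 was counted as its own gene and took at most 1.77% as many UMIs as Ftl1 in any sum, so reads could be split between them to that extent, and reads lost to both cannot be seen.

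The ratio of heavy to light chain UMIs set oligodendrocyte-like cells apart from all others, at 16.0, 17.4 and 31.3 Fth1 UMIs per Ftl1 UMI in suffixes 1 to 3. The next highest were smooth muscle cell-like cells of suffix 3 with 7.10 and astrocyte-like cells with 2.07, 3.28 and 5.82. Neutrophil-like cells had 2.93 and 3.38, microglia-like cells 1.67, 1.96 and 1.51, and border macrophage-like cells 1.01. Newly formed oligodendrocyte-like cells had 0.502 and 0.568 and oligodendrocyte precursor-like cells 0.939, 1.14 and 2.55, below mature oligodendrocyte-like cells in every suffix compared. Oligodendrocyte markers found in other classes differed in level between suffixes, and whether they came from free RNA, from doublets or from the cells themselves was not tested. If all UMIs of the 10 oligodendrocyte gate markers found in another class came with Fth1 in the oligodendrocyte-like ratio, they would bring 292, 452 and 1797 CPM of Fth1 to oligodendrocyte precursor-like cells, 20.3%, 25.5% and 57.0% of what they held, and 1.55%, 1.47% and 19.2% in microglia-like cells. The same share was 74.0% in pericyte-like and 36.1% in smooth muscle cell-like cells. In newly formed oligodendrocyte-like cells it was 274% and 385%, more than all their Fth1. The ratio thus did not hold in every class, and the marker sum is no sure measure of the Fth1 brought along.

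**Figure D2:**
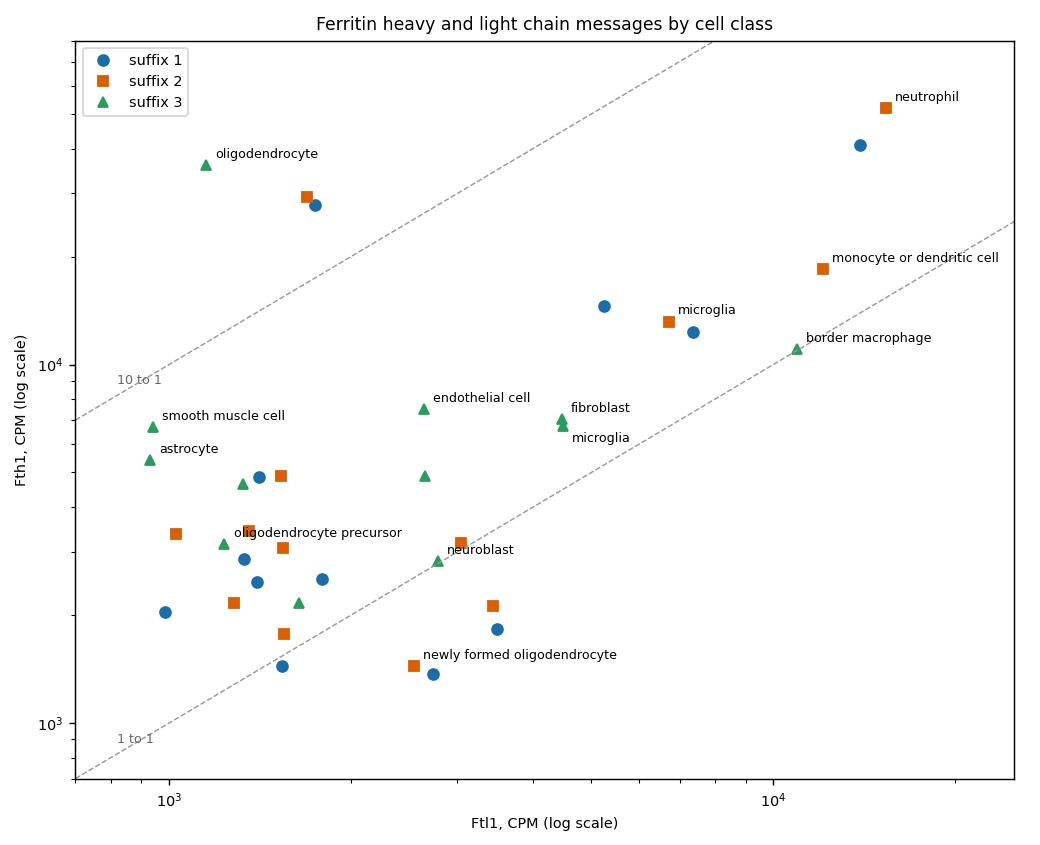
Fth1 against Ftl1 (CPM, both axes log scale) for each class and suffix with at least 20 cells, with dashed lines where the heavy chain equals the light chain (1 to 1) and exceeds it 10 times (10 to 1). The 3 oligodendrocyte sums alone lie above the upper line. Newly formed oligodendrocytes, neuroblasts of suffixes 1 and 2 and oligodendrocyte precursors of suffix 1 lie below the lower line.

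Transferrin message was highest in oligodendrocyte-like cells, which held 3388, 3279 and 5608 CPM of Trf, and 99.1% to 99.8% of them carried a Trf UMI. Fibroblast-like cells of suffix 3 held 1840.1 CPM in 20 cells and border macrophage-like cells of that suffix 1637 CPM. The few such cells of the other suffixes held less. Border macrophage-like cells held 772 CPM (575 to 1015) in 10 cells of suffix 1 and 833 CPM (544 to 1221) in 6 cells of suffix 2. Fibroblast-like cells held 537 CPM (65.0 to 1940) in 1 cell of suffix 1 and 188 CPM (61.2 to 440) in 5 cells of suffix 2. Microglia-like cells held 420.2, 386 and 1166 CPM and choroid plexus-like cells 349 and 375 CPM. Every other sum of at least 20 cells lay between 14.9 and 384 CPM, and in each class measured in all 3 suffixes the suffix 3 value was the highest. Precursor-like cells held 48.7, 54.8 and 307.8 CPM and newly formed oligodendrocyte-like cells 167 and 257 CPM.

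Because Trf may reach other cells as free oligodendrocyte RNA, it was set beside the summed UMIs of the 10 oligodendrocyte gate markers. Oligodendrocyte-like cells, which were gated on these markers, held 5.05, 5.43 and 3.29 marker UMIs per Trf UMI. T cell-like cells held 3.97, 3.55 and 2.28, neuroblast-like cells 3.61, 3.71 and 2.63 and neuron-like cells 5.33 and 5.83. In microglia-like cells the ratio was 0.278, 0.305 and 0.570, in border macrophage-like cells 0.348, in fibroblast-like cells 0.440 and in choroid plexus-like cells 0.157 and 0.209, so these classes held more Trf for their oligodendrocyte markers. Oligodendrocyte RNA in the ratio of its own suffix would bring 5.52%, 5.62% and 17.3% of the Trf of microglia-like cells, 10.6% of that of border macrophage-like cells, 13.4% of that of fibroblast-like cells and 3.11% and 3.84% of that of choroid plexus-like cells. For T cell-like cells the same share was 78.7%, 65.3% and 69.4%. It exceeded 100% in newly formed oligodendrocyte-like (272% and 242%), endothelial-like (199%), pericyte-like (147%), smooth muscle cell-like (133%) and neuron-like cells (106% and 107%). The oligodendrocyte-like ratio thus did not hold in every class, and the marker sum is no sure measure of the Trf brought along in any class. The source of the Trf in each class was not tested. All 10 markers were found in microglia-like cells, with summed levels of 117, 118 and 664 CPM against 17096 to 18427 CPM in oligodendrocyte-like cells.

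**Figure D3:**
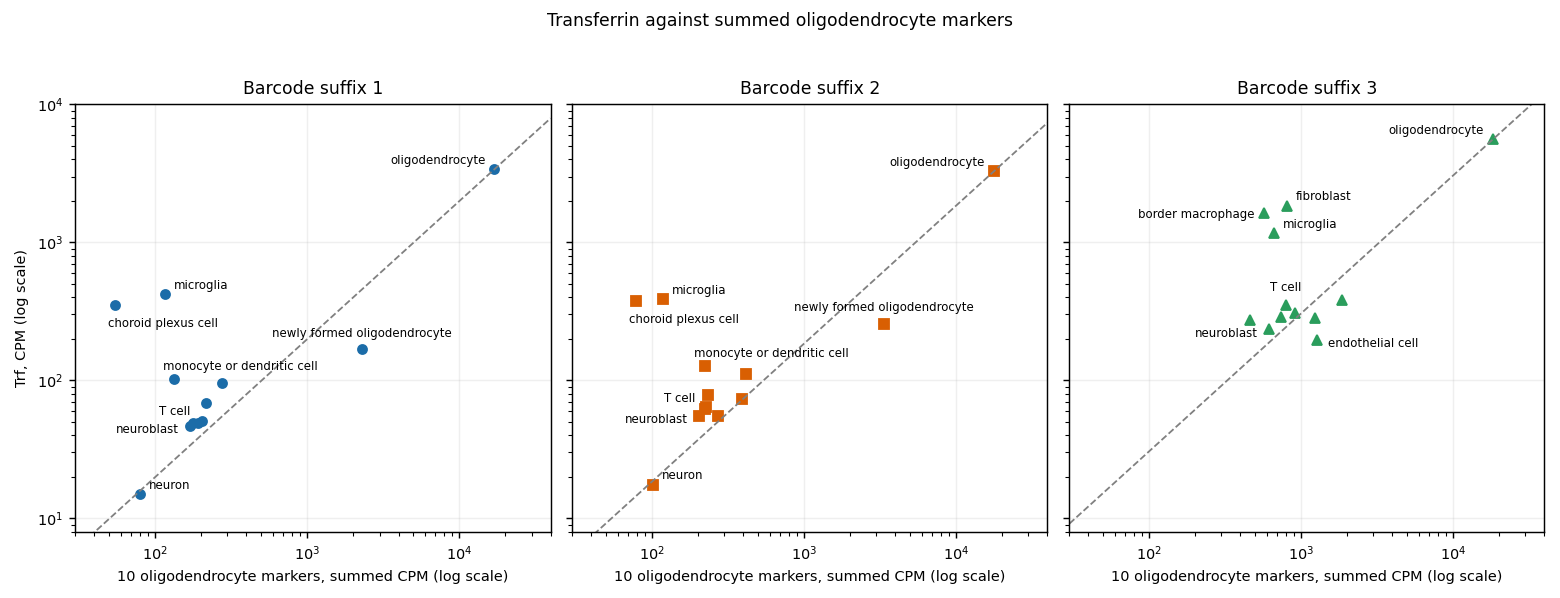
Trf against the summed level of 10 oligodendrocyte markers (CPM, both axes log scale) for each class with at least 20 cells, 1 panel per barcode suffix, with a dashed line at the ratio of oligodendrocyte-like cells of that suffix. T cell-like, neuroblast-like and neuron-like cells lie near the line, whereas microglia-like, border macrophage-like, fibroblast-like and choroid plexus-like cells lie above it.

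Tfrc, the transferrin receptor, was low in most cells and highest in endothelial-like cells. There it stood at 194.9 CPM (185 to 205, 958 cells of suffix 3), and 55.5% of the cells held a Tfrc UMI. The 16 endothelial-like cells of suffix 2 gave 32 UMIs, or 279 CPM (191 to 393). The next values, 50.6 CPM in astrocyte-like cells of suffix 3 and 48.8 CPM in pericyte-like cells (27.9 to 79.2), did not overlap it. Microglia-like cells held 15.9, 15.7 and 39.5 CPM, oligodendrocyte-like cells 21.5, 26.0 and 27.4 CPM, and neuroblast-like cells 33.7, 26.4 and 29.5 CPM. In suffixes 1 and 2 the microglia-like level lay below the oligodendrocyte-like and in suffix 3 above it, each beyond the counting intervals. Choroid plexus-like cells of suffix 1 were lower, at 3.08 CPM (0.998 to 7.18). Erythroid-like cells, whose precursors use this receptor most in the body, gave 2 Tfrc UMIs in 21 cells.

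Slc40a1, ferroportin, was found at more than 10 CPM in 9 of 37 sums. Endothelial-like cells held 138 CPM (130 to 146) and border macrophage-like cells 107 CPM (85.2 to 133), and these intervals overlapped. Neutrophil-like cells held 83.6 and 44.8 CPM and microglia-like cells 21.2, 12.9 and 36.3 CPM. The 16 endothelial-like cells of suffix 2 gave 23 UMIs, or 200.3 CPM (127 to 301). Border macrophage-like cells gave 17 UMIs in 10 cells of suffix 1, or 257 CPM (150 to 412). In 6 such cells of suffix 2 there were 2 UMIs, or 64.1 CPM (7.76 to 231). Fibroblast-like (18.4 CPM) and pericyte-like cells (12.2 CPM) rested on 2 and 4 UMIs. Oligodendrocyte-like cells, with the most iron storage message of the glia, held 0.908, 0.443 and 1.21 CPM from 14, 9 and 29 UMIs.

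Cp, ceruloplasmin, was highest in fibroblast-like, pericyte-like, endothelial-like and border macrophage-like cells. Not all cells of vessels held much of it: smooth muscle cell-like cells of suffix 3 held 18.6 CPM (6.04 to 43.4), from 5 UMIs in 45 cells. Fibroblast-like cells held 1168 CPM (974 to 1390), but from 20 cells, and 19 of these had a Cp UMI. Another 5 such cells of suffix 2 held 75.4 CPM (9.13 to 272), and with a mitochondrial limit of 10% or a gate of 1 marker more or fewer the leading class was pericyte-like, at 343 to 367 CPM. Pericyte markers summed to 7600 CPM in the fibroblast-like cells of suffix 3, and their part in the Cp level was not tested. Pericyte-like cells held 363 CPM (301 to 434) and endothelial-like cells 331 CPM (319 to 344), which did not separate, and border macrophage-like cells held 203 CPM (172 to 237). Oligodendrocyte precursor-like cells held 74.0, 83.8 and 64.8 CPM in the 3 suffixes, and 22.6% to 36.2% of them had a Cp UMI, whereas oligodendrocyte-like cells held 0.886 to 2.12 CPM. Astrocyte-like cells, often described as a source of ceruloplasmin in brain, held 9.83, 0 and 3.07 CPM in 60, 85 and 142 cells. Pericyte and endothelial markers summed to 39.7 and 117 CPM in border macrophage-like cells, against 39782 CPM in pericyte-like and 20327 CPM in endothelial-like cells.

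In endothelial-like cells of suffix 3, import and export genes were often found together. Of 958 cells, 532 held Tfrc, 480 Slc40a1 and 503 Cp. Slc40a1 was found in 57.1% of cells with Tfrc and 41.3% of cells without it, and Cp in 57.9% and 45.8%. Cells with Tfrc were deeper, with a median of 7079 against 4803 UMIs, and how far depth made these differences was not tested.

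Erythroid-like cells needed their own scale, since 4 hemoglobin genes took 89.9% of their UMIs. Scaled to the other UMIs alone (11346 in 21 cells), they held 21417 CPM of Fth1 (18809 to 24286), 16217 CPM of Ftl1 and 970 CPM of Blvrb (484 to 1735) from 11 UMIs. The Blvrb interval includes the 624 CPM of border macrophage-like cells, so which class leads for Blvrb depends on the scale. Without hemoglobin UMIs Trf stood at 2732 CPM, Cp at 264 CPM, Tfrc at 176 CPM and Slc40a1 at 88.1 CPM. The last 3 came from 3, 2 and 1 UMIs. Oligodendrocyte RNA in the marker ratio above would bring 41.8% of the Fth1 and 51.0% of the Trf of these cells. Hmox1 and Cd163 gave 0 UMIs there. Outside these cells the hemoglobin genes summed to between 7.33 and 85.4 CPM.

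The 9 genes were then compared between pairs of classes. A gene was tested if it reached 10 CPM in at least 1 of both classes, summed over the suffixes used, and called if the ratio of CPM + 10 was at least 2-fold in the same direction in every suffix with 20 cells of both classes. Adding 10 CPM understates the fold of low genes, and the call is a rule of size, not a test of significance. A gene below 10 CPM in 1 class, in any suffix used, could not be called lower in the other class. For such genes only 1 direction of call was open.

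**Figure D4:**
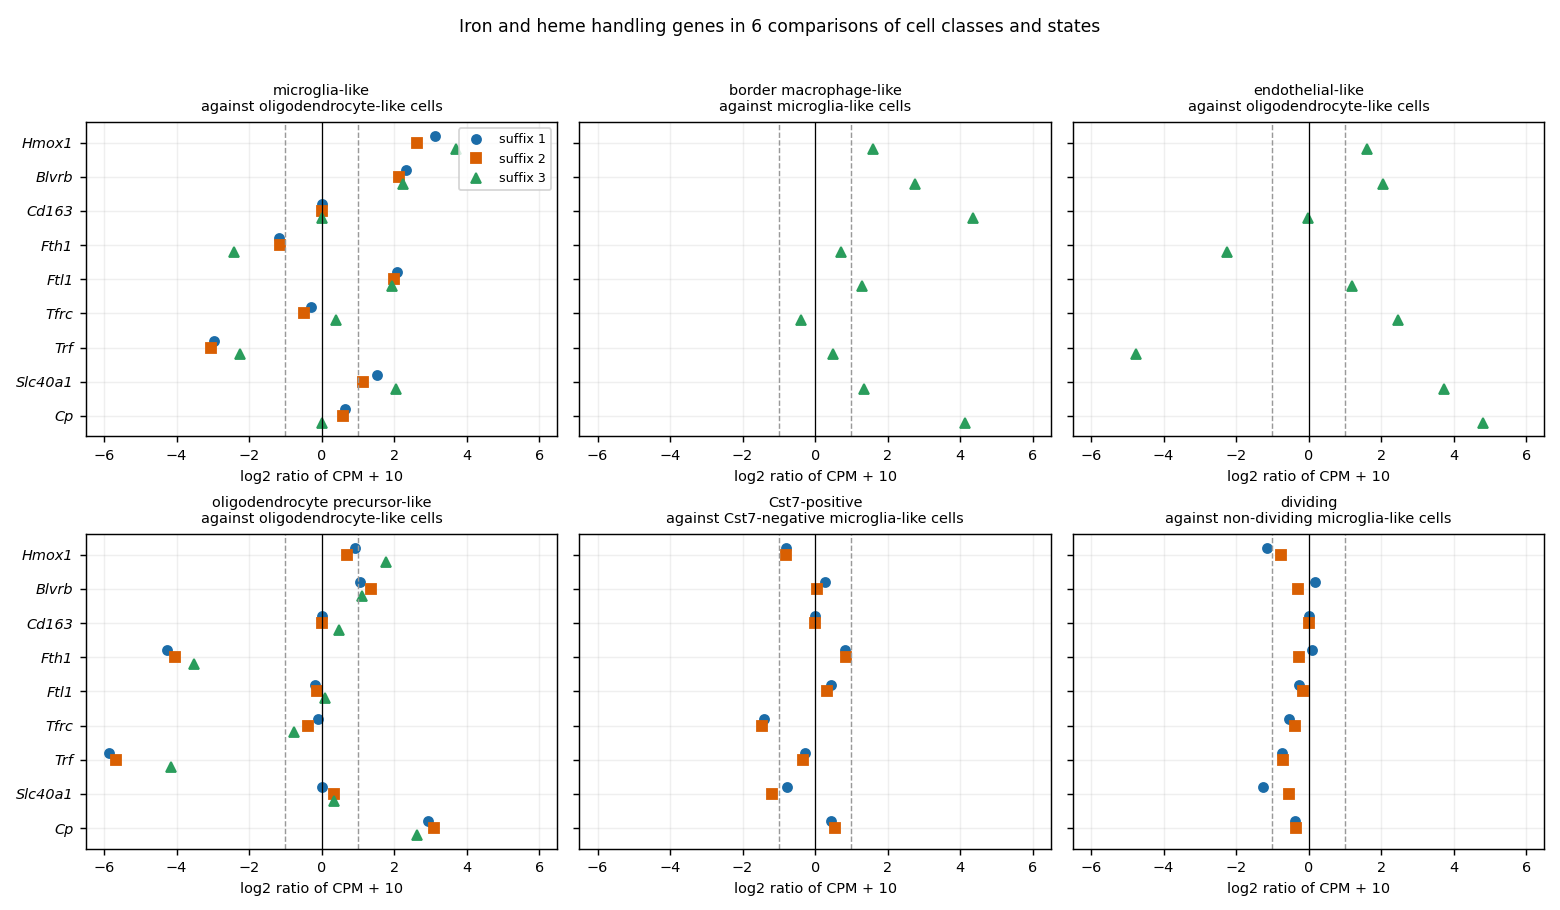
Log2 ratio of CPM + 10 (horizontal) for the 9 genes in 6 comparisons, 1 point per barcode suffix, with dashed lines at 2-fold. Points of suffix 3 alone are shown for border macrophages and endothelial cells, and those of suffixes 1 and 2 for the 2 comparisons within microglia.

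Between microglia-like and oligodendrocyte-like cells, in all 3 suffixes, 7 of the 9 genes were tested and 6 called. Hmox1 was 8.76, 6.24 and 13.1-fold higher in microglia-like cells, Ftl1 4.21, 3.96 and 3.87-fold and Blvrb 5.01, 4.41 and 4.76-fold. Slc40a1 was higher by 2.86, 2.20 and 4.13-fold, from low levels. Slc40a1 in all suffixes, and Hmox1 and Blvrb in suffix 3, lay below 10 CPM in oligodendrocyte-like cells. These genes could not have been called lower in microglia-like cells. Fth1 was lower, at 0.441, 0.449 and 0.188 of the oligodendrocyte-like level, and Trf at 0.127, 0.120 and 0.209. Tfrc changed sides between suffixes. Thus 4 genes were called higher where 12.9% of the 8592 genes tested were, and 2 lower where 19.5% were. The median log2 ratio was 1.51 over the 7 genes and -0.46 over all genes tested. That 1.51 is the ratio of Slc40a1, which could not have been called lower, so the median is only a description. For border macrophage-like and endothelial-like cells below, the same medians were 1.34 and -0.22, and 1.82 and -0.05. For precursor-like cells they were -0.12 and 0.50, by Cst7 state -0.30 and -0.28, and by division -0.45 and 0.09.

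Border macrophage-like cells exceeded microglia-like cells of suffix 3 for 6 of 9 genes, with 4.92% of 7886 tested genes called higher and 9.22% lower, and none of the 9 lower. The ratios were 20.3-fold for Cd163, 17.4-fold for Cp, 6.73-fold for Blvrb, 2.997-fold for Hmox1, 2.53-fold for Slc40a1 and 2.44-fold for Ftl1. Fth1 (1.63-fold), Trf (1.40-fold) and Tfrc (0.764-fold) did not pass. In microglia-like cells Cd163 (0.0766 CPM) and Cp (2.22 CPM), the genes with the largest ratios, lay below the CPM limit for testing. Both were thus tested through border macrophage-like cells and could not have been called lower there. This comparison rests on 1 library.

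Endothelial-like cells of suffix 3 exceeded oligodendrocyte-like cells of that suffix for 6 of 8 genes tested, where 20.1% of 8988 genes were called higher. They were Cp (28.2-fold), Slc40a1 (13.2-fold), Tfrc (5.48-fold), Blvrb (4.12-fold), Hmox1 (3.03-fold) and Ftl1 (2.28-fold). Oligodendrocyte-like levels of Cp (2.12 CPM), Slc40a1 (1.21 CPM), Blvrb (9.77 CPM) and Hmox1 (6.03 CPM) lay below 10 CPM. These genes were thus tested through endothelial-like cells and could not have been called lower there. Trf and Fth1 were called lower, at 0.0368 and 0.209 of the oligodendrocyte-like level, where 16.3% of genes were. Suffixes 1 and 2 held 1 and 16 endothelial-like cells, so this comparison too rests on 1 library. The Hmox1 call was lost when cells were thinned to 1000 UMIs.

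From precursor to mature cells of the oligodendrocyte line, 7 genes were tested. Fth1 was lower in precursor-like cells in every suffix, at 0.0520, 0.0607 and 0.0878 of the mature level, and Trf at 0.0173, 0.0197 and 0.0566. Oligodendrocyte RNA in the marker ratio above would bring 72.9%, 92.1% and 90.9% of the Trf of precursor-like cells. Fth1 and Trf were called lower, where 5.49% of genes were. Cp was 7.56, 8.61 and 6.17-fold higher and Blvrb 2.08, 2.55 and 2.14-fold, among 16.6% of 10116 genes called higher. Both lay below 10 CPM in mature cells of at least 1 suffix, so neither could have been called lower. Ftl1 was alike, with ratios of 0.883, 0.918 and 1.07. The Blvrb call was lost with a minimum of 2000 UMIs or a mitochondrial limit of 10%. Hmox1, at 1.89, 1.61 and 3.40-fold, was not called, but was after thinning, with a pseudocount of 1 CPM and at a limit of 1.5-fold.

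Microglia-like cells were split by Cst7, which encodes cystatin F and marks microglia around damage. Cst7-positive cells held a Cst7 UMI and at least 3 of 7 markers of that state, and Cst7-negative cells had no Cst7 UMI and fewer than 3. There were 1404 and 3076 positive and 1041 and 1302 negative cells in suffixes 1 and 2, whereas suffix 3 had 6 positive and 1884 negative cells. Positive cells were deeper, with medians of 13227 and 11905 against 5108 and 4566 UMIs. Of 7 genes tested, Tfrc alone was called: it stood at 8.25 and 10.3 CPM in positive and 38.4 and 46.1 CPM in negative cells, ratios of 0.377 and 0.362. After every cell was thinned to 1000 UMIs, a Tfrc UMI was found in 0.712% and 1.24% of positive and 3.27% and 3.92% of negative cells. Of all 6981 genes tested, 3.98% were called lower and 1.95% higher. Tfrc lay below 10 CPM in positive cells of suffix 1, so it could not have been called higher in positive cells.

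Slc40a1 stood at 16.7 and 8.77 CPM in Cst7-positive and 35.6 and 32.7 CPM in Cst7-negative cells, ratios of 0.585 and 0.440, so suffix 1 missed 2-fold. Hmox1 stood at 142 and 113 against 256 and 203 CPM, ratios of 0.573 and 0.578. Fth1 stood at 13902 and 14262 against 7845 and 7899 CPM, ratios of 1.77 and 1.80. Both suffixes gave the same direction for each of these genes. Ftl1 differed less, with ratios of 1.34 and 1.25. Blvrb (1.20 and 1.04) and Trf (0.830 and 0.795) were closest to even.

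**Figure D5:**
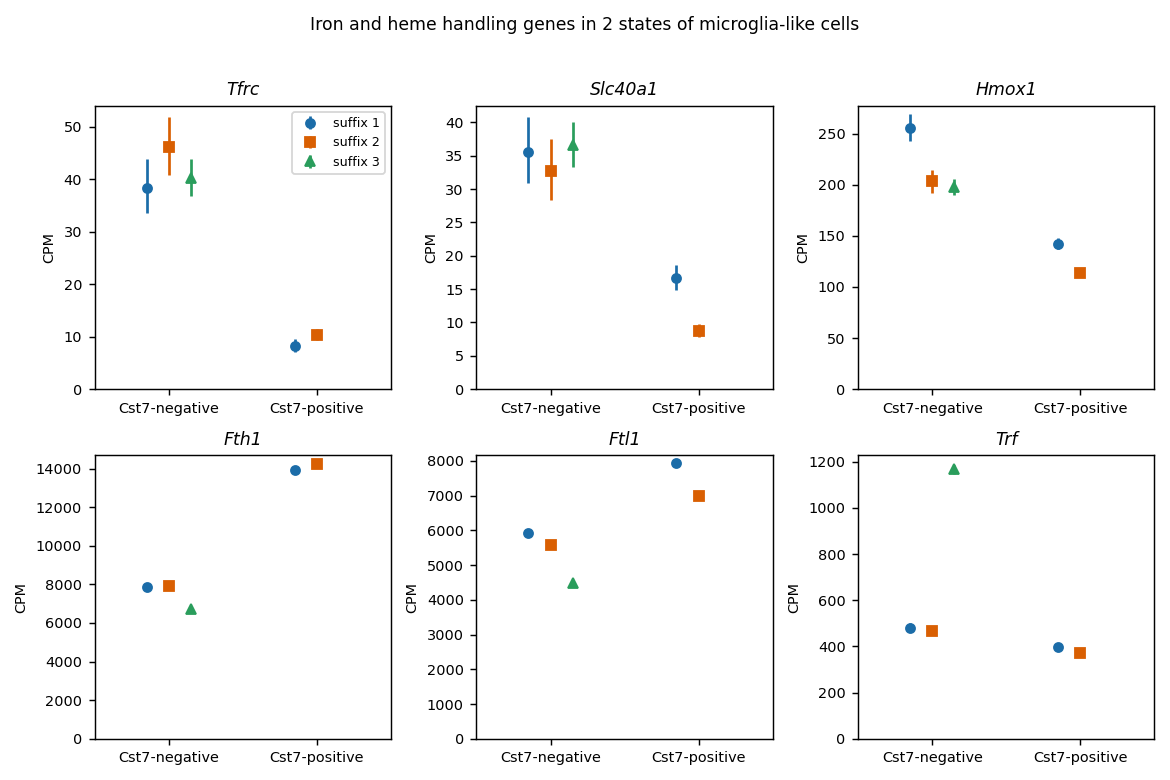
CPM of 6 of the genes in Cst7-negative and Cst7-positive microglia-like cells by barcode suffix, with exact Poisson 95% intervals. Suffix 3 is shown for Cst7-negative cells only, where Tfrc and Slc40a1 lie with suffixes 1 and 2 and Trf lies above them.

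Dividing microglia-like cells, with at least 3 of 8 division markers, numbered 34 and 106 in suffixes 1 and 2 and 10 in suffix 3. None of 7 genes tested was called in either direction, where 5.15% of 6994 genes were called higher and 0.286% lower. Hmox1 stood at 72.4 and 73.5 CPM in dividing and 174 and 130.4 CPM in other cells, ratios of 0.447 and 0.595. Tfrc, which rises in many dividing cells, stood at 8.05 (2.61 to 18.8) and 10.1 CPM (6.15 to 15.6) against 16.1 and 15.9 CPM. The dividing values came from 5 and 20 UMIs. Dividing microglia-like cells were deeper, with medians of 16319 and 18360 against 8025 and 8348 UMIs. Per cell they held 0.147 and 0.189 Tfrc UMIs against 0.156 and 0.155. In dividing T cell-like cells Tfrc stood at 15.04 and 19.2 CPM against 25.2 and 19.4 CPM in the rest, and in dividing neuroblast-like cells at 25.03, 20.6 and 39.0 against 37.0, 29.5 and 23.2 CPM, with no common direction.

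The 3 suffixes were compared within the 2 largest classes, and a gene was called where its highest CPM + 10 was at least 2-fold its lowest. In microglia-like cells 11.6% of 6378 genes were called, and of 7 genes tested Trf (2.97-fold) and Slc40a1 (2.02-fold) were, both highest in suffix 3. Fth1 (1.95-fold) and Tfrc (1.93-fold) lay just under the limit, the former lowest and the latter highest in suffix 3, and Blvrb differed by 1.10-fold. Among Cst7-negative cells alone, a comparison added after seeing the data, 2.55% of genes were called. Slc40a1 then gave 35.6, 32.7 and 36.6 CPM, Tfrc 38.4, 46.1 and 40.2 CPM and Fth1 7845, 7899 and 6711 CPM, all within 1.18-fold. Trf stayed apart with 482, 468 and 1167 CPM. In oligodendrocyte-like cells 1.67% of 7375 genes were called and none of the 5 genes tested, though Trf (1.71-fold, highest in suffix 3) and Ftl1 (1.51-fold, lowest in suffix 3) came nearest.

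Of 63 other genes of these routes, in lists covering uptake, synthesis, import, export and regulation, 62 were in the matrix. Between microglia-like and oligodendrocyte-like cells, 35 of these were tested, 7 called higher and 6 lower, where 12.9% and 19.5% of all genes were. Slc11a1, the iron pump of phagosomes, stood at 106, 101 and 144 CPM in microglia-like and 0.956 to 3.004 CPM in oligodendrocyte-like cells. Hfe, a partner of the transferrin receptor, stood at 46.2, 42.3 and 121 against 2.21 to 4.66 CPM. Both lay below 10 CPM in oligodendrocyte-like cells and could not have been called lower in microglia-like cells. The same limit holds for every listed gene below 10 CPM in 1 class, so these counts of calls are only a description. Nfe2l2, the activator of heme oxygenase and ferritin genes, Lrp1, which takes up heme bound to hemopexin, Alas1, the first step of heme synthesis, Slc46a1 and Slc25a37 were the others called higher. Slc48a1, a heme transporter of lysosomes, stood at 25.1, 21.5 and 44.1 CPM against 593, 582 and 699.7 CPM in oligodendrocyte-like cells. Cpox, of heme synthesis, stood at 10.8, 10.9 and 40.4 against 406, 408 and 621 CPM, and Fbxl5, which degrades an iron regulatory protein, at 16.1, 14.3 and 23.0 against 127, 122 and 102 CPM. Fech, Slc22a17 and Gpx4, the guard against lipid peroxides, were also lower.

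In border macrophage-like against microglia-like cells 2 of 36 such genes were called higher and 3 lower, close to the 4.92% and 9.22% of all genes. Spic, the heme-induced factor of iron-recycling macrophages, stood at 88.8 against 0 CPM, and Blvra, the other biliverdin reductase, at 90.1 against 32.8 CPM. Spic was thus tested through border macrophage-like cells and could not have been called lower there. Lrp1, Abcg2 and Slc46a1 were the 3 called lower. In endothelial-like against oligodendrocyte-like cells 10 of 38 were called higher and 7 lower, where 20.1% and 16.3% of all genes were, among the former Lcn2, a binder of bacterial iron carriers, at 2092 against 6.53 CPM, Abcg2, a heme and drug pump, at 616 against 14.0 CPM, Alas1 at 328 against 19.5 CPM and Slc39a8, a metal importer, at 77.4 against 0.707 CPM. Flvcr2, Alad, Steap3, Hfe, Nfe2l2 and Bach1 were the others, and Hmox2, Slc48a1, Cpox, Fech, Fbxl5, Slc22a17 and Gpx4 were lower. Lcn2 and Slc39a8 lay below 10 CPM in oligodendrocyte-like cells, so neither could have been called lower in endothelial-like cells. In precursor-like against oligodendrocyte-like cells Lrp1 (530.4, 494 and 733 against 2.25 to 5.02 CPM), Abcg2, Steap2 and Slc22a17 were called higher of 36, and Slc48a1, Cpox, Nfe2l2 and Gpx4 lower, where 16.6% and 5.49% of all genes were. Lrp1, below 10 CPM in oligodendrocyte-like cells, could not have been called lower in precursor-like cells. By Cst7 state within microglia-like cells, Pgrmc1 was called lower, at 42.4 and 45.7 against 98.4 and 109 CPM, the only call among 34 tested, where 3.98% of all genes were called lower.

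In at least 2 suffixes, 5 of these genes were 2-fold or more above the next class. Hp, the haptoglobin that Cd163 recognises on hemoglobin, stood at 529 and 800.1 CPM in neutrophil-like cells, and Nfe2l2 at 953 and 906 CPM in the same cells. Steap1 and Steap2, of a family of membrane metal reductases, stood at 186 to 268 and 71.3 to 125 CPM in choroid plexus-like cells. Heph, the membrane oxidase related to ceruloplasmin, stood at 29.5, 23.2 and 27.6 CPM in astrocyte-like cells. Of the list of iron export, Hamp, the hormone that closes ferroportin, did not pass 9.97 CPM in any sum.

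For each gene the 3 genes of most similar pattern were found by Pearson's r of log2(CPM + 10) over the 37 class and suffix sums, among 14535 genes. The sums of 1 suffix share a library, so r is a description. Hmox1 was most like Ly96 (0.906), Tlr4 (0.894) and Hacd4 (0.874), of which Tlr4 is the receptor for bacterial lipopolysaccharide and Ly96 its partner. Blvrb was most like Renbp (0.729), Ccl7 (0.713) and Smagp (0.711). Cd163 was most like Mrc1 (0.978), itself a gate marker, Vsig4 (0.975) and Cd209f (0.975). It reached 10 CPM in 1 of the 37 sums, that of border macrophage-like cells, so its r rests largely on that sum. Fth1 was most like Adssl1 (0.850), Emilin2 (0.795) and Crybg3 (0.786), and Ftl1 like Ftl1-ps1 (0.940), its near copy, Cxcl2 (0.881) and Arl11 (0.867). Tfrc was most like Adgrl2 (0.733), Kitl (0.701) and Insr (0.699), the insulin receptor, and Trf like Ptgds (0.836), Tmem63a (0.822) and Gna12 (0.787). Slc40a1 was most like Ptgs2 (0.829), Ier3 (0.818) and Xdh (0.808), and Cp like Spry1 (0.854), Adm (0.848) and Lama4 (0.807).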

How the data were processed

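The authors made UMI counts per gene and cell with Cell Ranger 3.1.0 and STAR on mm10 and, per the study's methods, read depth was equalised between libraries when they were joined; the deposited matrix holds raw counts in whole numbers, and its gene and barcode lists (other values: names, not measurements) were deposited beside it. Samples are labelled control, IS and HS, but the deposited barcodes are not tied to them, so all tests between conditions were left out. Cells were kept with at least 1000 UMIs and at most 30% mitochondrial UMIs (13 mt- genes), and assigned to a class when at least 4 to 7 of its 10 markers had a UMI and no other class did. Gates were set on the markers alone. The 9 genes, the lists and the comparisons were chosen with earlier results of these data known. Genes to name were the 9, their 3 most similar genes, and list genes that were called or led a class 2-fold in 2 suffixes. Results of some genes that met this rule are not reported here. Doublets were not removed in the main results; Scrublet (scanpy 1.11.5) called 4.82%, and leaving them out was 1 of 15 alternatives. Intervals are exact Poisson (CPM) or Clopper-Pearson at 95%, and 0 UMIs allows 3. A fixed seed thinned cells to 1000 UMIs. The call rule was tested on simulated data. Python 3.11.15, NumPy 2.4.6, SciPy 1.17.1 and pandas 2.3.3 were used. Depth per library was 69270514 to 105957232 UMIs in all barcodes.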

Additional observations from a re-analysis of the deposited data

Results flagged for a closer look

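The 3986 barcodes removed by the filter on depth and mitochondrial UMIs were used in no comparison, and 8 of the 9 genes stood in them above the 0.772 CPM that a count of 0 allows. Trf stood at 2225 CPM, against 1461 CPM in kept cells, and Tfrc at 34.2 against 31.4 CPM. Fth1 stood at 12100 CPM (12099.8) against 15639 CPM, Ftl1 at 1722 against 4169 CPM, Hmox1 at 33.7 against 81.7 CPM and Blvrb at 27.5 against 56.2 CPM. Slc40a1 stood at 14.4 against 17.1 CPM and Cp at 14.2 against 24.2 CPM. Cd163 did not exceed 3 UMIs there.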

How the results depend on the processing

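Each of the 15 alternatives changed 1 choice. Of 238 counts recomputed, 193 stayed within 1.5 times the main count and 45 moved, and the leading class of a gene was kept in 126 of 135 cases. No called gene of the 9 changed direction. The numbers of all genes called were 2786 for microglia-like against oligodendrocyte-like cells, 1115 for border macrophage-like against microglia-like, 3277 for endothelial-like against oligodendrocyte-like, 2235 for precursor-like against oligodendrocyte-like, 414 by Cst7 state, 380 by division, and 743 and 123 apart between libraries in microglia-like and oligodendrocyte-like cells. In that order, a limit of 1.5-fold gave 4379, 2624 (border macrophage-like), 3881 (precursor-like), 1513, 999, 2409 and 421 where the count moved, and 3-fold gave 1533, 455, 1917, 1194, 84, 166, 181 and 60. A pseudocount of 1 CPM gave 1974 (border macrophage-like), 3376 (precursor-like), 927, 685, 1374 and 195. Thinning to 1000 UMIs gave 2432 (border macrophage-like) and 833 (division). Of the 9 genes, those called by Cst7 state numbered 4 at 1.5-fold (Hmox1, Tfrc and Slc40a1 lower, Fth1 higher), 2 with a pseudocount of 1 CPM and 0 at 3-fold, against 1. By division they numbered 2 at 1.5-fold and 1 with a pseudocount of 1 CPM, against 0. Border macrophage-like cells kept 3 (Blvrb, Cd163 and Cp) of 6 at 3-fold. Apart between libraries, 1 gene was called in microglia-like cells with upper limits on UMIs and genes per cell, with a gate of 1 marker more, after thinning, and in Cst7-negative cells (182 genes in all), 6 at 1.5-fold and 0 at 3-fold, against 2. In oligodendrocyte-like cells 2 were called at 1.5-fold, against 0. Leaving out 1 suffix gave 6 to 709 genes apart in microglia-like cells (6 without suffix 3) with 0 to 2 of the 9, and 15 to 117 in oligodendrocyte-like cells. It gave 1 to 2 of the 9 by Cst7 state, and 380 to 679 genes with 0 to 2 of the 9 by division (679 and 2 without suffix 2). Without suffix 3 the border macrophage-like and endothelial-like comparisons gave no value, and Hmox1 then led in neutrophil-like, Blvrb in microglia-like and Tfrc in astrocyte-like cells. No paired analysis was possible because each condition had 1 library. Why counts moved was not tested.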
